A study of Mus musculus with 12 samples.

Results

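The 40 genes described here are mouse mitosis genes: cyclins and kinases that drive entry into mitosis, and proteins of the spindle, its checkpoint, the kinetochore and cell division. They were taken by name as mitotic kinases, cyclins, spindle and checkpoint genes, not by a cut on their measured values. Earlier results of these data were known when they were chosen. All 40 are among the 24421 genes of the deposited log2 table and among the 18948 genes tested, so none was lost to a filter on low genes. Bulk RNA sequencing was done on 12 libraries. Tumor libraries 1 to 6 came from sarcomas that arose in bone or marrow of p53 knockout (KO) mice. Libraries 1 to 3 labelled KO MSC came from marrow mesenchymal stem cells (MSCs) of p53 KO mice, and WT MSC libraries 1 to 3 from the same cell population of p53 wild-type (WT) mice. MSCs were sorted for CD140a and the leptin receptor and against the blood and vessel antigens CD31, CD45 and Ter119. The labels call all material freshly isolated. For tumors the labels describe extraction with TRIzol and no sort, so that stroma, vessels and blood cells of the tumor may be included. The labels name no Cre driver, age or sex and tie no library to an animal, so a p-value covers the spread among libraries and that spread may be technical.

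Mitotic genes are transcribed in a wave that peaks in late G2 and mitosis, so their RNA in a tissue follows how many cells are dividing. Cyclin B with Cdk1 starts mitosis, Aurora and Polo-like kinases build the spindle, and the checkpoint holds the anaphase-promoting complex until every kinetochore is attached. Many of these genes carry a cell cycle genes homology region (CHR) with upstream CCAAT boxes in the promoter: the MuvB core binds the CHR, as the repressive DREAM complex in resting cells and with B-MYB and FOXM1 in dividing cells, and NF-Y binds CCAAT. As background, p53 lowers many of them through p21 and DREAM. Bulk RNA cannot tell fewer dividing cells from less of each RNA per dividing cell.

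Several libraries stood apart, and Trp53 did not separate the KO MSC and WT MSC labels. Trp53, the gene deleted in KO mice, had log2 values between 6.79 and 9.16 in tumors (median 7.68), against 10.49, 9.76 and 6.96 in libraries 1, 2 and 3 labelled KO MSC and 9.96, 10.04 and 10.61 in WT MSC libraries 1, 2 and 3. Libraries 1 and 2 labelled KO MSC were thus near WT MSC, and library 3 was near the tumors. Whether the gene's counted exons are those deleted is not given in the sources used here. Of 24421 genes, 1118 were at the lowest value of their batch in KO MSC 1 and 2143 in WT MSC 1, against 7435 to 10862 in the other libraries. The most, 10862, were in library 3 labelled KO MSC, so its low Trp53 stood in a library with many low genes. Shared lowest values divided the libraries into batch 1 (tumors 1 to 3, KO MSC 1 and WT MSC 1) and batch 2 (the rest). The sorted MSC libraries held RNA of erythroid marker genes. The mean log2 value of 14 erythroid markers was 6.21 to 9.29 in tumors, 9.71 to 12.04 in libraries labelled KO MSC and 9.28 to 11.95 in WT MSC libraries, and that of 12 macrophage markers was 10.68 to 14.36, 5.69 to 6.93 and 5.57 to 7.01 in the same order. Stromal identity markers such as Lepr and Cxcl12 averaged 6.72 to 8.77 in tumors, 10.96 to 11.82 in libraries labelled KO MSC and 12.22 to 13.31 in WT MSC libraries.

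Promoters of 33 members were found in RefSeq (build GRCm38.p6, the assembly called mm10), with 36 promoters in all, each 250 bases before to 50 bases after a gene start. Aurkb, Ccna2, Cdc25c, Foxm1, Incenp, Kif20a and Tpx2 were not among them. A CHR word (TTTGAA or TTTAAA, on either strand) stood in 30 of 36 member promoters (83.3%) and in 27.6% of all 32851 promoters. CCAAT, on either strand, stood in 29 of 36 (80.6%) and in 37.4% of all promoters. Both words were present in 72.2% of member promoters and 10.7% of all promoters. A CCAAT that starts 25 to 40 bases before a CHR start, a spacing chosen after the matches were seen, was found in 18 of 36 member promoters and in 1.1% of all promoters. Bub3, Ect2 and Prc1 have 2 overlapping promoters each. Counted once per gene, the spacing was in 15 of 33 members (45.5%), CHR in 81.8%, CCAAT in 78.8% and both words in 69.7%. Over all genes these shares were 1.1%, 27.8%, 37.9% and 10.9%. An E2F word (either TTCCCGC, or else TTCGCGC, or else TTGCCGC, or else TTGGCGC, on either strand) stood in 6 of 36 (16.7%) and in 9.6% of all promoters. In the promoter of Ccnb1 and in each promoter of Ect2 it overlaps a CCAAT. These are letter matches, not measured binding. The windows of 150 bases printed here, from 110 before to 40 after the gene start, show the 6 members that differed between tumor and WT MSC and the 2 lowest in tumor relative to KO MSC by unadjusted p (Ccnb1 and Nek2). Capitals mark CHR and CCAAT words on either strand, and each is read 5′ to 3′ on the strand of the gene:
Cdk1, chr10:69352873-69353022, minus strand: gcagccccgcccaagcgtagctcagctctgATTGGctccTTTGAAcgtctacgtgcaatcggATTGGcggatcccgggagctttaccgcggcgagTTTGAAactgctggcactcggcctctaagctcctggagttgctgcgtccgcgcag
Ccnb1, chr13:100786447-100786596, minus strand: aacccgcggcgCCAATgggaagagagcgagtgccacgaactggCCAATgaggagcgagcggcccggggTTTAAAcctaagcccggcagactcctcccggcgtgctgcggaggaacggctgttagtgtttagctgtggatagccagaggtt
Cenpf, chr1:189688047-189688196, minus strand: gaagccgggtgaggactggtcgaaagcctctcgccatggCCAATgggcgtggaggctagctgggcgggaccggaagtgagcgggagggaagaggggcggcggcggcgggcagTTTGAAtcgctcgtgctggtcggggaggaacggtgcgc
Spc25, chr2:69206174-69206323, minus strand: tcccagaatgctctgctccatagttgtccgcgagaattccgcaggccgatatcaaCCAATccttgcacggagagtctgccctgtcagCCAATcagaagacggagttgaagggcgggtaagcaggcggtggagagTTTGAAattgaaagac
Kif11, chr19:37376272-37376421, plus strand: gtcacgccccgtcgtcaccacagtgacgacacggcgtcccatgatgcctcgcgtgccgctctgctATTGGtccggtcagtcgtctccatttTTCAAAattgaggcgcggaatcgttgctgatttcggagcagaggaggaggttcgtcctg
Nek2, chr1:191821363-191821512, plus strand: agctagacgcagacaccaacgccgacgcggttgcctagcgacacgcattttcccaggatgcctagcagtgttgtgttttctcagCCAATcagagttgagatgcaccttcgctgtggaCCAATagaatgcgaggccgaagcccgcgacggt
Birc5, chr11:117849127-117849276, plus strand: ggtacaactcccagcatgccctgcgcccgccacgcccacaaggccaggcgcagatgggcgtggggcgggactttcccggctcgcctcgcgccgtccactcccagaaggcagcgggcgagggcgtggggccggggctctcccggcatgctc
Nusap1, chr2:119618188-119618337, plus strand: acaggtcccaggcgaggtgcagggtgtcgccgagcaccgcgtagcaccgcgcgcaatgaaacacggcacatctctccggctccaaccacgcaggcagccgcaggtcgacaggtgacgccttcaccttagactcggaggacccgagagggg
The windows of Cdk1, Ccnb1, Cenpf, Spc25 and Kif11 hold both words, that of Nek2 holds CCAAT alone, and those of Birc5 and Nusap1 hold neither. Members that were higher and members that were lower in tumors therefore both include promoters with CHR and CCAAT words (Cenpf and Spc25, and Kif11).

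**Figure D1:**
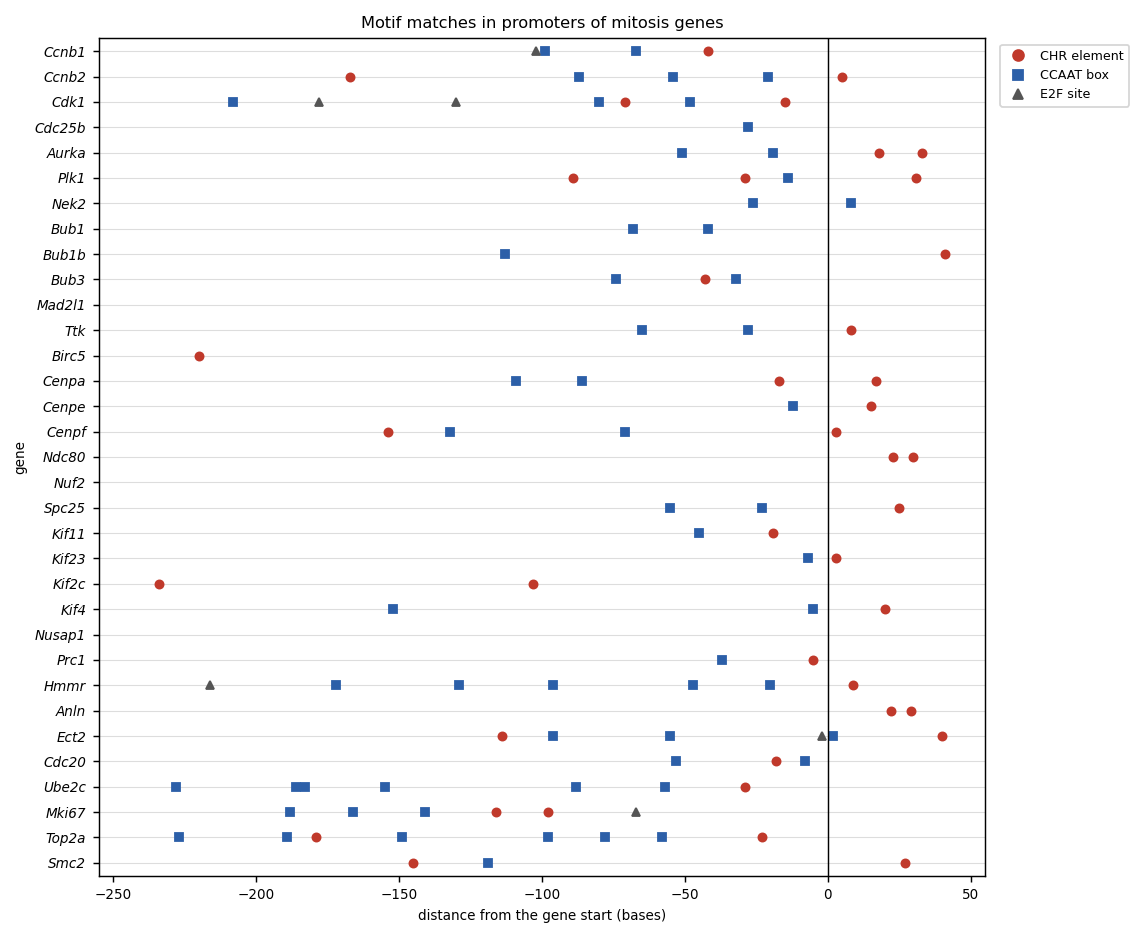
Positions of motif matches in 1 promoter of each of 33 mitosis genes: the horizontal axis is the distance from the gene start in bases, each row is a gene, and circles, squares and triangles mark CHR, CCAAT and E2F words. Most CCAAT squares lie before the start and most CHR circles lie close to it.

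Mean levels of the 40 members overlapped between the groups. The mean log2 value over the members was 8.02 to 9.32 in tumors (median 8.75), 9.95, 9.25 and 7.92 in libraries 1, 2 and 3 labelled KO MSC, and 8.84, 7.91 and 9.20 in WT MSC libraries 1, 2 and 3. All 3 ranges overlap. KO MSC 1 held the highest value of all 12 libraries for 18 members, KO MSC 3 the lowest for 19 and WT MSC 2 the lowest for 12. Among the 3 libraries labelled KO MSC, library 3 was lowest for 32 of 40 members, and among WT MSC libraries, library 2 was lowest for 39 of 40. Among tumors, tumor 4 was highest for 18 members and tumor 6 for 11, while tumor 1 was lowest for 20 and tumor 3 for 10. The members' mean was 8.02, 8.83 and 8.28 in tumors 1, 2 and 3 (batch 1) and 9.32, 8.66 and 9.06 in tumors 4, 5 and 6 (batch 2). The part of batch in this spread was not tested.

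**Figure D2:**
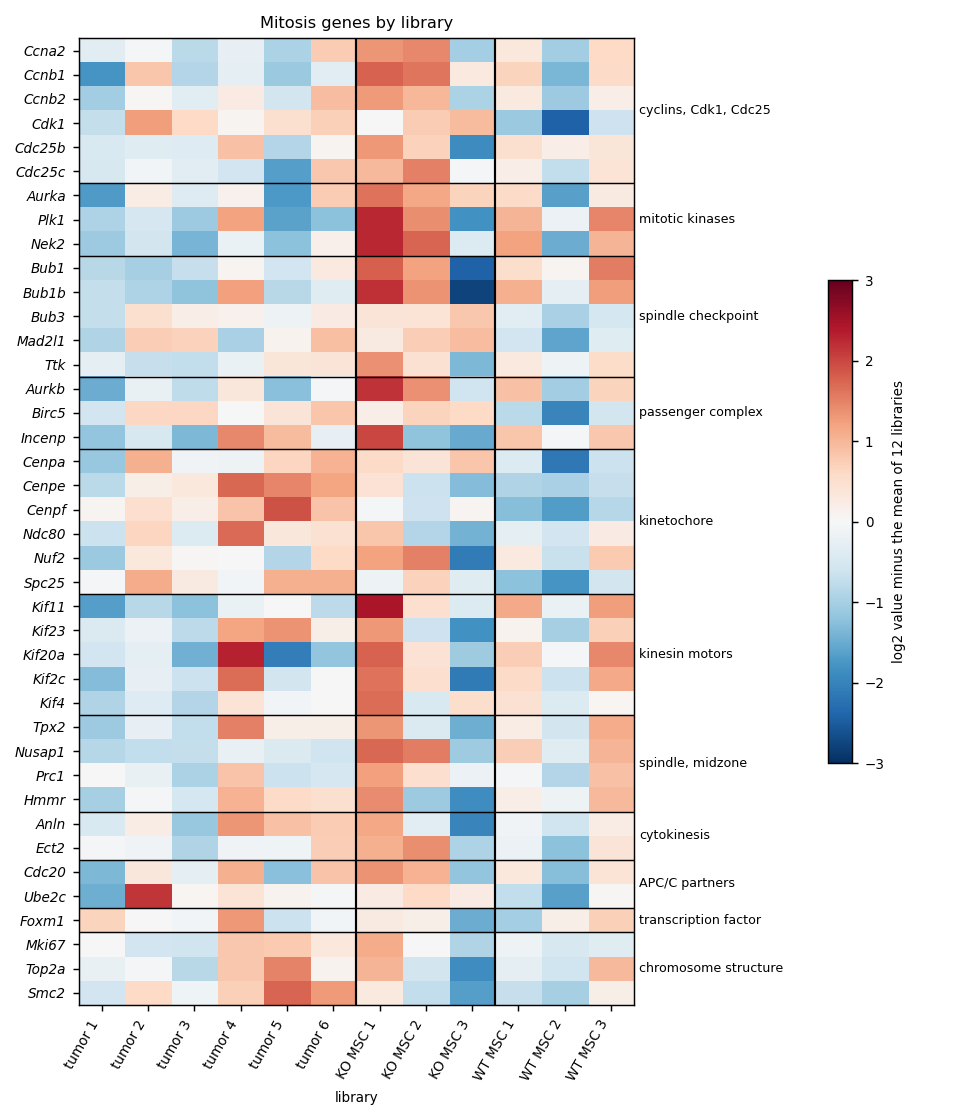
Log2 value of each mitosis gene minus its mean over the 12 libraries, by library (columns: tumors, libraries labelled KO MSC, WT MSC) and by role (rows). Red is above and blue below the gene's mean; KO MSC 1 is red for most genes, and KO MSC 3 and WT MSC 2 are blue for most.

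Tumors were first set against WT MSC, the comparison of a p53-deficient sarcoma with normal marrow stroma. By limma with Benjamini-Hochberg adjustment, 4 of 40 members were higher in tumors (Cenpf, Spc25, Cdk1 and Birc5), 2 were lower (Kif11 and Nusap1) and 34 did not pass. Over all genes tested, 10.4% were higher and 10.9% lower, so the members' count of higher genes stands near the background and that of lower genes under it. The median change of the members was -0.21 on the log2 scale, against -0.06 over all genes. Changes lay above 0 for 19 members and below 0 for 21.

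Of the 6 kinetochore members, 2 were higher. Cenpf, a large coiled-coil protein of the outer kinetochore, had values of 8.24 to 10.08 in tumors (median 8.85) and 6.89, 6.49 and 7.31 in WT MSC libraries 1, 2 and 3. Every tumor was above every WT MSC library, and the change was 2.01 ± 0.42 (SE, 6 tumors and 3 WT MSC, limma adjusted p = 0.0073). Spc25, a subunit of the NDC80 complex that grips microtubules, had 9.41 to 10.59 in tumors (median 10.14) and 8.26, 7.70 and 8.93 in WT MSC. Its groups did not overlap either, and it was higher by 1.75 ± 0.40 (limma adjusted p = 0.0119). These were the only 2 members whose groups did not overlap, both higher, where 12.9% of all genes had every tumor above every WT MSC library and 12.3% had the opposite order. Cenpe, the kinetochore motor that brings chromosomes to the spindle equator, had 6.83 to 9.36 in tumors (median 8.38) and 6.74, 6.67 and 6.94 in WT MSC, with a change of 1.53 that did not pass (limma adjusted p = 0.0598). Tumor 1 fell within the WT MSC range and the other tumors lay above it. The remaining kinetochore members did not pass: Cenpa, the centromeric histone variant, at 1.30, and Ndc80 and Nuf2, partners of Spc25, at 0.56 and -0.32.

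Among cyclins and Cdk1, only the kinase passed. Cdk1 had 10.21 to 12.18 in tumors (median 11.48) and 9.82, 8.50 and 10.32 in WT MSC, a change of 1.79 ± 0.49 (limma adjusted p = 0.0267). Tumor 1 lay between the WT MSC libraries, and all other tumors lay above them. Ccnb1, the cyclin that activates Cdk1 at mitotic entry, had 8.25 to 10.85 in tumors (median 9.41) and 10.68, 8.65 and 10.58 in WT MSC, a change of -0.55 that did not pass. Ccna2 and Ccnb2 changed by -0.22 and 0.08 and did not pass. Cdc25b, a phosphatase that removes the inhibitory phosphates of Cdk1, had 6.92 to 8.68 in tumors (median 7.42) and 8.27 and 8.18 in WT MSC libraries 1 and 3, with library 2 the lowest of its group; tumor 4 was above all 3 WT MSC libraries, the other tumors were below, and it did not pass.

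Of the passenger complex, which corrects faulty attachments, Birc5 (survivin) had 10.18 to 11.58 in tumors (median 11.26) and 9.94, 8.77 and 10.20 in WT MSC. It was higher by 1.43 ± 0.42 (limma adjusted p = 0.0330), with tumor 1 just under WT MSC 3. Its kinase partner Aurkb and scaffold Incenp stood at -0.74 and -0.67 and did not pass. Incenp had 6.86 to 9.65 in tumors (median 7.85) and 9.04, 8.16 and 9.01 in WT MSC, where tumors 4 and 5 were above every WT MSC library and the others were below.

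Kif11 and Nusap1 were the members that fell. Kif11, the motor that pushes spindle poles apart, had 6.21 to 7.85 in tumors (median 7.04) and 8.98, 7.66 and 9.10 in WT MSC, and changed by -1.51 ± 0.46 (limma adjusted p = 0.0388). Tumors 4 and 5 reached the level of WT MSC 2. Nusap1, which bundles microtubules near chromatin, had 7.78 to 8.40 in tumors (median 7.98) and 9.36, 8.27 and 9.65 in WT MSC, a change of -1.06 ± 0.34 (limma adjusted p = 0.0483). Only tumor 4 was above WT MSC 2.

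The kinases and checkpoint members did not pass. Plk1, the Polo-like kinase of spindle assembly, had 7.48 to 10.28 in tumors (median 8.07) and 10.10, 8.90 and 10.54 in WT MSC, with tumor 4 alone within the WT MSC range. Aurka, the spindle pole kinase, had 8.04 to 10.51 in tumors (median 9.62) and 10.33, 8.13 and 10.03 in WT MSC, and the groups overlapped. Nek2, a kinase of centrosome separation, had 6.79 to 8.34 in tumors (median 7.35) and 9.38, 6.68 and 9.19 in WT MSC. All tumors lay between WT MSC 2 and the other WT MSC libraries. Bub1, the checkpoint kinase, had 6.54 to 7.83 in tumors (median 6.91) and 8.06, 7.62 and 9.08 in WT MSC, a change of -1.17 ± 0.42 (limma adjusted p = 0.0731). Bub1b, the checkpoint protein BubR1, had 6.93 to 9.37 in tumors (median 7.35) and 9.21, 7.88 and 9.38 in WT MSC, with tumor 4 alone within the WT MSC range. Bub3, which recruits both to kinetochores, had 10.84 to 12.03 in tumors (median 11.70) and 11.22, 10.59 and 11.02 in WT MSC. Tumor 1 lay between the WT MSC libraries and the other tumors lay above them, without passing. Mad2l1 and Ttk, the checkpoint effector and its upstream kinase, stood at 0.92 and -0.43.

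Markers often read as proliferation did not pass either. Mki67, which coats mitotic chromosomes, had 7.46 to 8.85 in tumors (median 8.21) and 7.89, 7.58 and 7.68 in WT MSC. Top2a, the topoisomerase that untangles sister DNA, had 8.91 to 11.23 in tumors (median 9.77) and 9.47, 9.14 and 10.71 in WT MSC, and Foxm1, the transcription factor of the mitotic wave, had 6.67 to 8.61 in tumors (median 7.28) and 6.31, 7.49 and 8.04 in WT MSC. The groups overlapped for all 3 genes. The 34 members that did not pass had changes of -1.46 to 1.53, which include those of Prc1, Hmmr, Tpx2, Anln, Ect2, Cdc20, Ube2c, Smc2 and the other kinesins.

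Cenpf passed with each library left out in turn. Spc25 did not pass without WT MSC 1 (limma adjusted p = 0.0568) or WT MSC 2 (0.0693), and Cdk1 not without tumor 3 (0.0509), WT MSC 1 (0.0750) or WT MSC 2 (0.129). Birc5 did not pass without WT MSC 1, WT MSC 2 or any of tumors 2, 3, 5 and 6, Kif11 not without WT MSC 1, WT MSC 3 or any of tumors 1, 2, 3 and 6, and Nusap1 not without WT MSC 1, WT MSC 3 or any of tumors 1, 2, 3, 5 and 6. Without tumor 4, 5 of 40 members were lower (Kif11, Nusap1, Bub1b, Kif20a and Plk1), near the 13.7% of all genes that were lower in that fit. Within batch 1, which has 1 WT MSC library, Cenpf was at 1.54 and Kif11 at -2.37, and within batch 2 Cenpf was at 2.48 and Kif11 at -0.85; neither passed. Of the 40 members, 1 was lower within batch 1 (Nusap1, against 13% of all genes) and 1 was higher within batch 2 (Cenpe, against 0.971% of all genes). The lone WT MSC library of batch 1 is assumed to vary as its tumors do. By limma, erythroid markers were lower in tumors than in WT MSC for 7 of 14, where 10.9% of all genes were lower. Granulocyte markers were lower for 6 of 12 and stromal identity markers for 9 of 10. Macrophage markers were higher for 11 of 12 and endothelial markers for 8 of 10, where 10.4% of all genes were higher. The part of these cells in the members' changes was not tested.

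**Figure D3:**
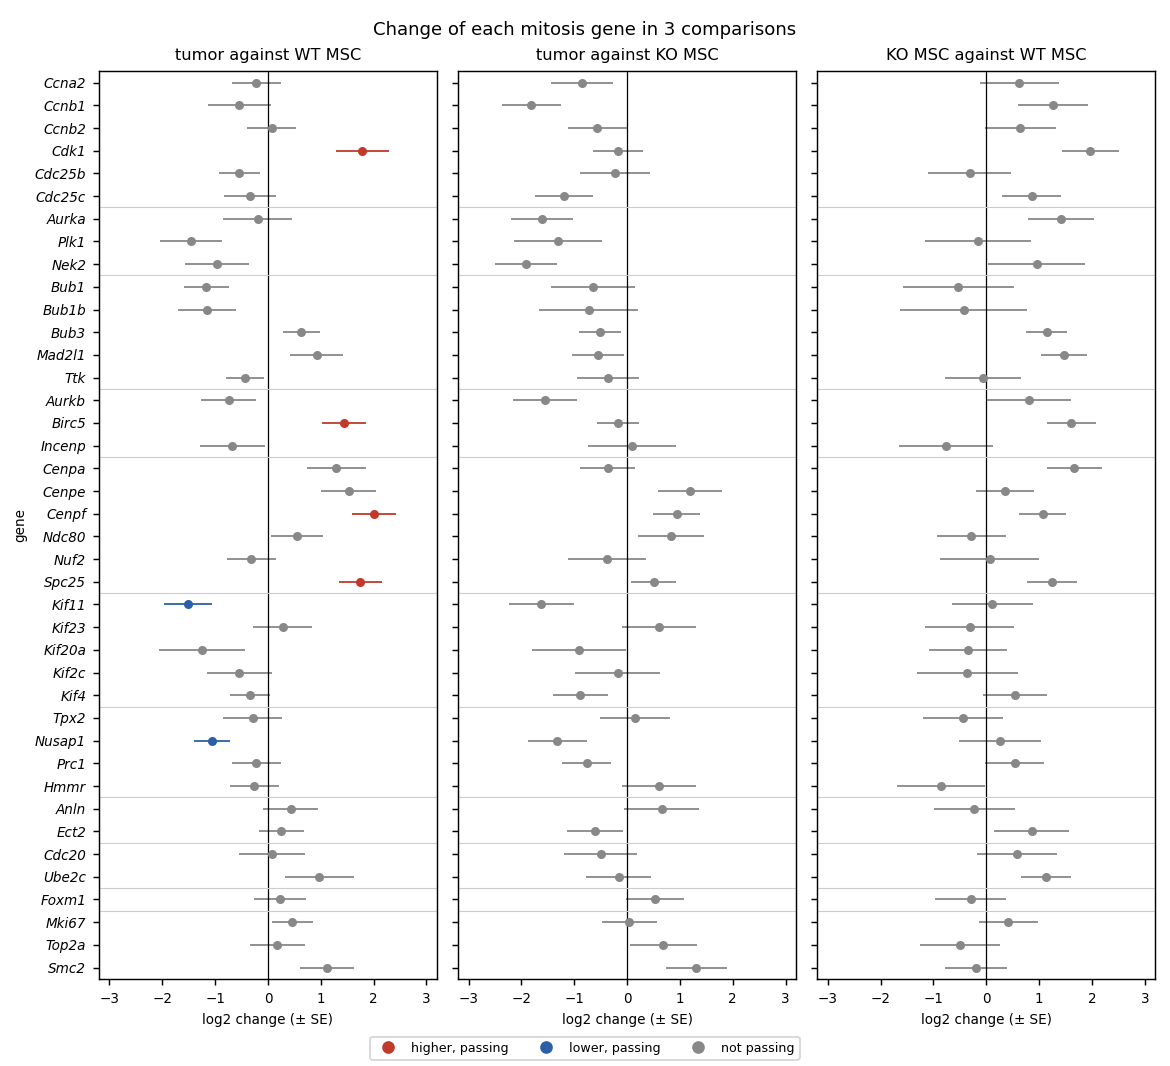
Log2 change of each mitosis gene (rows) in the 3 comparisons, 1 to a panel, with bars of 1 SE from limma. Red points are higher and blue points lower at an adjusted p under 0.05; the 6 colored points are all in tumor against WT MSC.

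Tumors were next set against the libraries labelled KO MSC, which carry the same genotype label. By limma 0 of 40 members passed, where 4.98% of all genes did (2.7% higher and 2.28% lower). At an unadjusted p under 0.05, 1 member was higher (Smc2) and 6 were lower (Ccnb1, Nek2, Aurka, Kif11, Aurkb and Nusap1), against 13.6% and 12.8% of all genes. In 0 members did the groups not overlap, against 8% of all genes with tumors above and 5.39% with tumors below. The median change of the members was -0.38, against 0.04 over all genes, and 27 of 40 lay below 0. The mitotic kinases Aurka, Plk1 and Nek2 and all 6 cyclins, Cdk1 and phosphatases lay below 0. So did all 5 spindle checkpoint genes, Cdc20 and Ube2c. All 3 chromosome structure genes lay above 0, but Mki67 only at 0.04 ± 0.52 (SE).

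Ccnb1 had 8.25 to 10.85 in tumors (median 9.41) and 11.79, 11.61 and 10.31 in libraries 1, 2 and 3 labelled KO MSC, a change of -1.81 ± 0.56 (limma adjusted p = 0.0818). Tumor 2 was the only tumor above KO MSC 3. Nek2 had 6.79 to 8.34 in tumors and 10.44, 9.91 and 7.76 in libraries labelled KO MSC, a change of -1.91 ± 0.59 (limma adjusted p = 0.0834). Aurka had 8.04 to 10.51 in tumors and 11.39, 10.92 and 10.42 in libraries labelled KO MSC, with tumor 6 just above KO MSC 3 and a change of -1.61 ± 0.58 (limma adjusted p = 0.126). Smc2, the condensin ATPase, had 8.39 to 10.71 in tumors (median 9.62) and 9.25, 8.22 and 7.30 in libraries labelled KO MSC, a change of 1.31 ± 0.57. For Smc2 the order was the opposite one, with only tumors 1 and 3 below KO MSC 1. Cenpe had 6.83 to 9.36 in tumors (median 8.38) and 8.08, 6.99 and 6.32 in libraries labelled KO MSC, with tumors 4 to 6 above all 3. Cenpe and Cenpf had changes of 1.18 ± 0.60 and 0.94 ± 0.44 and did not pass. Kif11 had 10.31, 8.35 and 7.44 and Nusap1 10.35, 10.17 and 7.57 in libraries 1, 2 and 3 labelled KO MSC, so library 3 lay within the tumor range of Kif11 and below that of Nusap1.

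The count of members called depended on the libraries kept and on the scaling. Without library 3, 7 of 40 members were lower in tumors by limma (Aurkb, Bub1, Ccnb1, Kif11, Nek2, Nusap1 and Plk1), where 4.87% of all genes were, and the median change was -1.01; Ccnb1 changed by -2.27 ± 0.60 (adjusted p = 0.0458) and Nek2 by -2.72 ± 0.48 (adjusted p = 0.0136). With library 3 as the only library labelled KO MSC, a comparison added after seeing the data because Trp53 was low in that library alone, 0 members passed, where 0.137% of all genes were higher and 0.359% lower, and the median change was 0.88. In that fit the lone library is assumed to vary as the tumors do. Within batch 1, whose only library labelled KO MSC is library 1, 7 of 40 members were lower (Bub1, Bub1b, Cdc25b, Kif11, Nek2, Nusap1 and Plk1), near the 15.1% of all genes that were lower there, and the median change was -1.71. That lone library too is assumed to vary as the tumors do. Within batch 2, 0 members passed and the median change was 0.18. With all libraries labelled KO MSC kept, Ccnb1 alone was lower without tumor 2 (-2.10 ± 0.50, limma adjusted p = 0.0434), where 1.78% of all genes were, and Ccnb1 (limma adjusted p = 0.0430) and Nek2 (0.0441) were lower after quantile normalization, where 5.07% of all genes were.

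Libraries labelled KO MSC were then set against WT MSC, a comparison of p53 genotypes by label in sorted stroma. Trp53 RNA in libraries 1 and 2 labelled KO MSC was near that of WT MSC. By limma 0 of 40 members and 0 of all 18948 genes (0%) passed, and the lowest adjusted p of a member was 0.551. At an unadjusted p under 0.05, 8 members were higher (Cdk1, Birc5, Mad2l1, Cenpa, Bub3, Spc25, Ube2c and Cenpf), where 2.57% of all genes were, and 0 were lower, where 6.07% of all genes were. The median change was 0.38, against -0.01 over all genes, and 24 of 40 lay above 0. In 9 members all 3 libraries labelled KO MSC were above all 3 WT MSC libraries, these 8 and Aurka, where 6.31% of all genes showed that order; no member showed the opposite order, against 8.93% of all genes.

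Cdk1 had 10.95, 11.70 and 11.88 in libraries 1, 2 and 3 labelled KO MSC and 9.82, 8.50 and 10.32 in WT MSC libraries 1, 2 and 3, a change of 1.97 ± 0.54 (SE, 3 and 3). Birc5 had 10.94, 11.43 and 11.36 in libraries labelled KO MSC and 9.94, 8.77 and 10.20 in WT MSC, a change of 1.61 ± 0.46. Mad2l1 had 9.80, 10.27 and 10.45 in libraries labelled KO MSC and 8.97, 7.96 and 9.18 in WT MSC, a change of 1.48 ± 0.44. In all 3 genes library 3 labelled KO MSC was above library 1, while it was the lowest of its label for 32 of 40 members. Bub3 had 11.93, 11.97 and 12.36 in libraries labelled KO MSC and 11.22, 10.59 and 11.02 in WT MSC, and Spc25 had 9.34, 10.17 and 9.11 in libraries labelled KO MSC and 8.26, 7.70 and 8.93 in WT MSC. Both had every library labelled KO MSC above every WT MSC library. Cenpf had 8.10, 7.54 and 8.25 in libraries labelled KO MSC and 6.89, 6.49 and 7.31 in WT MSC, a change of 1.07 ± 0.45.

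Hmmr, Incenp and Top2a were among the members on the lower side. Hmmr, a spindle assembly protein that binds hyaluronan and microtubules, had 9.39, 6.88 and 6.10 in libraries 1, 2 and 3 labelled KO MSC and 8.18, 7.82 and 8.94 in WT MSC, a change of -0.86 ± 0.83. Incenp had 10.21, 7.02 and 6.71 in libraries labelled KO MSC and 9.04, 8.16 and 9.01 in WT MSC (-0.76 ± 0.89), and Top2a had 10.75, 9.19 and 7.87 in libraries labelled KO MSC and 9.47, 9.14 and 10.71 in WT MSC (-0.50 ± 0.75). In each of the 3 genes library 1 labelled KO MSC was above and library 3 below every WT MSC library. The checkpoint genes Bub1b and Bub1 differed widely among libraries of that label: Bub1b had 10.33, 9.49 and 5.36 and Bub1 9.32, 8.75 and 5.10 in libraries 1, 2 and 3 labelled KO MSC. Plk1 had 11.34, 10.48 and 7.26, Cdc25b 9.10, 8.50 and 5.91 and Foxm1 7.60, 7.51 and 5.84 in those libraries. Mki67 had 9.17, 8.07 and 7.16 in libraries labelled KO MSC, on both sides of its WT MSC values.

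Here too single libraries set the median. It was -0.11 without library 1 labelled KO MSC and 0.96 without library 3, 0.06 without WT MSC 2, 1.11 within batch 1 (1 library against 1, no test) and -0.05 within batch 2. With library 3 as the only library labelled KO MSC, the median was -0.99, and 3 of 40 members were lower by limma (Bub1, Bub1b and Cdc25b), where 11.6% of all genes were, and 0 were higher, where 5.11% of all genes were. Cdk1 in that fit was at 2.34 ± 0.76 and did not pass (adjusted p = 0.101). The lone library is assumed there to vary as the WT MSC libraries do.

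**Figure D4:**
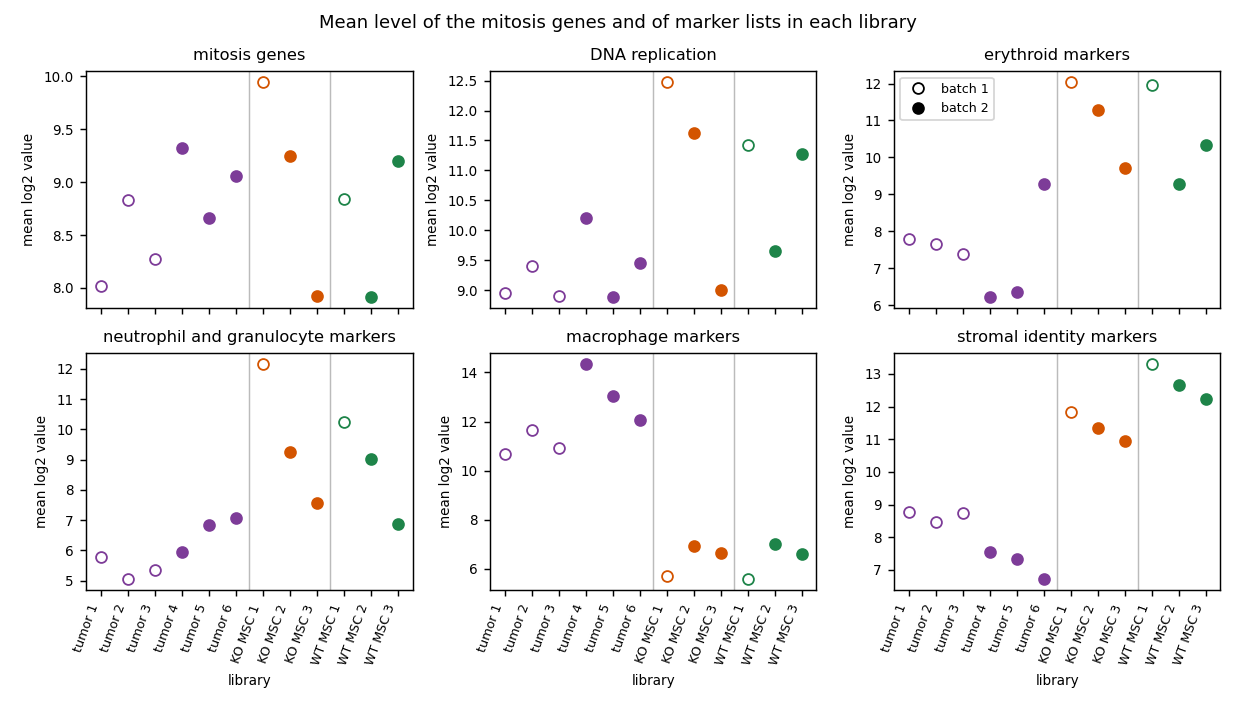
Mean log2 value of the 40 mitosis genes, of 7 DNA replication genes and of 4 marker lists in each library (tumors, libraries labelled KO MSC, WT MSC), with open circles for batch 1 and filled circles for batch 2. KO MSC 1 is the highest and KO MSC 3 among the lowest of the 12 for the mitosis genes, and they are the highest and the lowest of their label for the erythroid and granulocyte markers.

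Several lists, of other marrow cells and of the stroma itself, moved with the members among the libraries labelled KO MSC. The mean of 14 erythroid markers was 12.04, 11.28 and 9.71 and that of 12 granulocyte markers was 12.17, 9.25 and 7.56 in libraries 1, 2 and 3, in the same order as the members' mean. Stromal identity markers (11.82, 11.34 and 10.96) and DNA replication genes (12.48, 11.63 and 9.01) fell in that order too. So did lymphocyte markers (6.30, 5.59 and 5.54), while macrophage markers did not (5.69, 6.93 and 6.63). Among WT MSC libraries the erythroid mean was 11.95, 9.28 and 10.35 and the granulocyte mean 10.24, 9.04 and 6.86, while the members' mean was highest in library 3. No erythroid marker was at the lowest value in any MSC library, and up to 4 of 12 granulocyte markers were. Among tumors, tumor 4 was highest in both the members' mean (9.32) and the macrophage mean (14.36). The part of these cells in the members' levels was not tested.

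In KO MSC against WT MSC, change fell with coding length across the members, and in the other comparisons it did not fall steadily. In 7 members the longest principal coding sequence is under 1000 bases: Cenpa (402), Birc5 (420), Spc25 (534), Ube2c (537), Mad2l1 (615), Cdk1 (891) and Bub3 (978). All 7 lay above 0 in KO MSC against WT MSC, at 1.13 to 1.97 (median 1.48), where the median of all genes of that length was 0.12. The 23 members of at least 1000 and under 3000 bases had a median of 0.07 and the 10 members of 3000 bases and over one of -0.04. In tumor against WT MSC the 7 short members also all lay above 0, at 0.63 to 1.79 (median 1.30), where all genes of that length had a median of 0.35. The middle class had a median of -0.32 there and the class of 3000 bases and over one of 0.31, with 6 of 10 above 0. Both comparisons use the same 3 WT MSC libraries. In tumor against KO MSC 1 of the 7 lay above 0 (median -0.18), and the middle and long classes had medians of -0.57 and 0.35. The length classes were chosen after seeing the data.

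Levels by library show the same split. The mean log2 value of the 7 short members was 9.77 to 11.62 in tumors, 10.78, 11.17 and 11.14 in libraries 1, 2 and 3 labelled KO MSC and 9.82, 8.78 and 10.11 in WT MSC libraries 1, 2 and 3. That of the 10 members of 3000 bases and over was 7.52 to 8.91 in tumors, 9.35, 8.11 and 6.86 in libraries labelled KO MSC and 8.12, 7.53 and 8.49 in WT MSC libraries. Library 3 labelled KO MSC was therefore among the high libraries for short members and the lowest of all for long ones. Spearman's rho of change with coding length in KO MSC against WT MSC was -0.64 across the 40 members and -0.42 across all 16840 genes with a coding length. It was 0.34 and -0.14 for tumor against KO MSC, and -0.15 and -0.37 for tumor against WT MSC. Genes are not independent replicates, and these are descriptions. With a correction for coding length, added after seeing the data, 3 of 40 members were higher in tumor against WT MSC (Cenpf, Cdk1 and Cenpe), where 10.7% of all genes with a coding length were. Spc25 (0.87) and Birc5 (0.27) no longer passed, and 0 members were lower, where 15.7% of those genes were. In tumor against KO MSC 3 of 40 were lower (Ccnb1, Kif11 and Nek2), near the 7.19% of those genes that were lower.

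**Figure D5:**
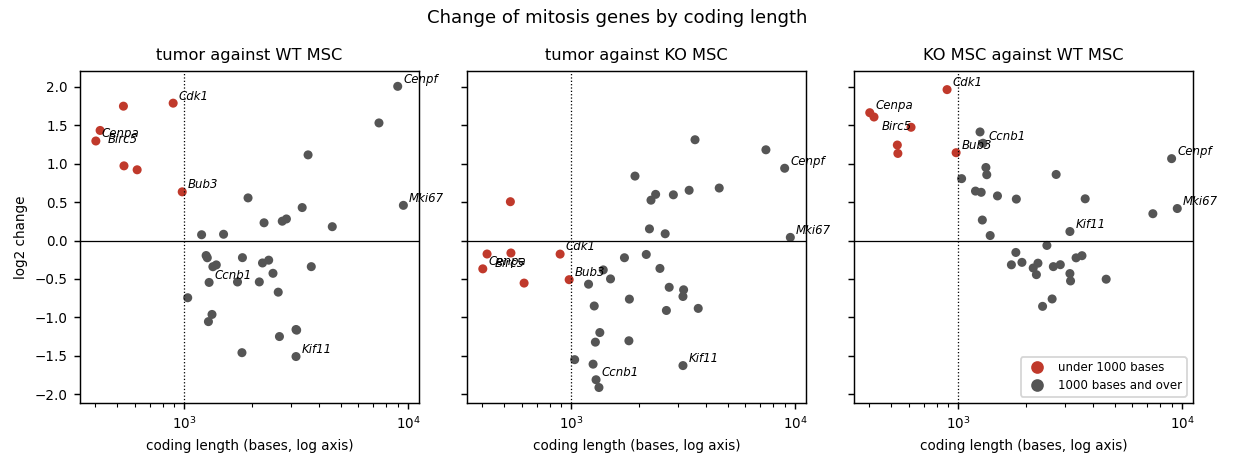
Log2 change of each mitosis gene against its coding length in bases (log axis) in 3 comparisons; red points are the 7 members under 1000 bases. They all lie above 0 in tumor against WT MSC and in KO MSC against WT MSC. In tumor against KO MSC 1 of them (Spc25, 0.51) lies above 0 and the other 6 lie below.

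The other mitotic genes looked at were 86 in 4 lists. In tumor against WT MSC, 9 were higher and 8 lower by limma, near the shares of all genes (10.4% and 10.9%), with a median of -0.26. Of 21 kinetochore and checkpoint genes 2 were higher (Cenpw 2.48 and Cenpm 1.32, subunits of the inner kinetochore) and 1 was lower (Zw10 -1.54, which brings dynein to kinetochores). Of 22 genes of kinesins, spindle and cytokinesis 1 was higher (Cep55 1.58, of abscission) and 0 were lower. Of 16 cohesin and condensin genes 2 were higher, the cohesin subunit Rad21 (1.58) and securin Pttg1 (1.83), and 3 were lower, the condensin subunits Ncapd2 (-1.83), Ncaph (-1.44) and Ncapd3 (-1.10). Of 27 genes of the anaphase-promoting complex and mitotic entry 4 were higher and 4 lower, with the Cdk-binding proteins Cks1b (3.55) and Cks2 (2.31) and the complex's RING subunit Anapc11 (2.06) higher and its subunit Cdc23 (-1.53) lower. Changes of genes in these 4 lists are given without the correction for coding length, and the part of length in them was not tested. In tumor against KO MSC and in KO MSC against WT MSC limma called 0 of the 86; at an unadjusted p under 0.05, 5 were higher and 7 lower in tumor against KO MSC, where 13.6% and 12.8% of all genes were, and 8 higher and 0 lower in KO MSC against WT MSC, where 2.57% and 6.07% of all genes were. Of 7 DNA replication genes, all 6 subunits of the MCM helicase were lower in tumor against WT MSC (-2.12 to -1.65), and Mcm5 alone was lower in tumor against KO MSC (-3.08); Pcna stood at 0.82 and -0.61.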

How the data were processed

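RNA of 12 libraries (6 tumor, 3 KO MSC, 3 WT MSC) was copied with SMART-Seq v4 and made into unstranded libraries (NEBNext Ultra), per the labels' protocols. TopHat2 2.0.13, Cufflinks 2.2.1, Cuffdiff and build mm10 are named in the submitters' processing notes. The authors deposited log2 values of 24421 genes, variance-stabilized and batch-adjusted per the table title. These flatten to a floor for low genes, which understates their changes. A second deposited table, called normalized counts in its title, holds a score instead: the stabilized log2 value times 100, rounded, over a factor specific to each library (true of 100% of 18949 genes, tolerance 0.01). Neither table returns reads, so depth is unknown, and counting errors and count tests are not given. The values are not per length, so levels are not compared between genes.

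Groups came from sample titles. Tests used limma 3.58.1 (R 4.3.3; lmFit, eBayes with trend, two-sided), with only the 2 groups compared in a fit and neither covariates nor a pseudocount. Benjamini-Hochberg adjustment ran over the 18948 varying genes of the other table, and an adjusted p under 0.05 passed. The fit was also run on simulated independent values, with 200 genes changed by more than any member changed here. That run does not measure its power at the changes described. The comparisons share libraries. The 40 members, the lists and the tests were chosen with earlier results of these data known. Values by library are given for members that passed, for the 3 with the smallest unadjusted p in each direction and comparison, and for Mki67, Top2a, Cdk1, Ccnb1, Plk1, Aurka, Bub1b, Bub3, Cdc25b and Foxm1. For the other mitotic genes, up to 4 per list with the smallest adjusted p are named; Ncapd3 was added after its value was seen, to complete its count. Knl1, Sgo1, Sgo2a and Wapl were matched under older symbols. Coding length is the longest principal coding sequence of GENCODE M21, which 16840 genes (88.87% of those tested) and all 40 members have. Alternatives were no filter, the other table, quantile normalization, a batch term, each batch alone, a replicate block, all 3 groups in 1 fit and each library left out; a coding length correction and library 3 as the only one labelled KO MSC were added after seeing the data.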

Additional observations from a re-analysis of the deposited data

Results flagged for a closer look

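In tumors, Bub1b, which encodes the checkpoint protein BubR1, had 1 library far from the others. Its log2 value was 9.37 in tumor 4 and 6.93 to 7.77 in the other tumors, a gap to the nearest of 0.657 of the whole range, over the limit of Dixon's test for groups of 6. Chance gives such a gap in about 1 of 20 groups, and each of the 40 members was looked at. Without tumor 4, Bub1b was among 5 of 40 members lower in tumor against WT MSC, where 13.7% of all genes were lower.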

How the results depend on the processing

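Depth is unknown, so precision rests on the spread of 3 to 6 libraries. In KO MSC against WT MSC, limma called 2 genes higher and 41 lower within batch 2, and 969 and 2202 with KO MSC 3 alone, with 3 members lower and a member median of -0.99. The median was -0.11 to 0.96 leaving out 1 library, and that of Top2a alone -1.24 to 0.20, above 0 without KO MSC 3. In tumor against KO MSC, genes called were 1143 higher and 780 lower in 1 fit of all 3 groups, 9 and 18 within batch 2, 19 and 15 with a replicate block, 26 and 68 with KO MSC 3 alone (member median 0.88), 520 and 961 with quantile normalization (2 members lower), and 1211 lower with the coding length correction (3 members lower), which moved the median of all genes by -0.12. Within batch 1, 2853 genes and 7 members were lower, the member median was -1.71, and Smc2 (-0.32) and Cenpe (-0.55) changed sign. Leaving out 1 library gave 41 to 704 genes higher, 72 to 923 lower, 0 to 7 members lower and a member median of -1.01 to -0.09. In tumor against WT MSC, 0 members were lower in 1 fit of all 3 groups, with a batch term, the coding length correction, quantile normalization, the block or batch 2 alone, and 1 was lower without the filter, in the other table and within batch 1. Genes called were 353 higher within batch 1 (0 members higher), 184 and 356 within batch 2 (1 member higher) and 723 and 722 with the block (0 members higher). Leaving out 1 library gave 887 to 2134 genes higher, 969 to 2603 lower, 1 to 6 members higher, 0 to 5 lower and a member median of -0.53 to 0.18. The cause of these shifts was not tested. Same-numbered libraries did not deviate together in each pair (correlations of 0.24, 0.15 and -0.15 for KO MSC with WT MSC, -0.22, -0.07 and 0.22 for tumors with KO MSC, -0.32, -0.09 and 0.01 for tumors with WT MSC). The labels tie no library to an animal, and these correlations cannot settle whether the numbers are a pairing, which is unknown. With tumors the block uses tumors 1 to 3 only. Of 18 alternatives, Cenpf passed in 15, Spc25 in 12, Cdk1 in 11, Birc5 in 6, Kif11 in 5 and Nusap1 in 3.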
